A study of Mus musculus with 6 samples.

Results

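The genes described here are 35 members of the unfolded protein response and of the amino acid stress response. They were taken by symbol from a fixed list, and all 35 were found among the 24410 gene symbols of the deposited table. The chaperone arm holds 21 genes (sensors of the endoplasmic reticulum with Xbp1, folding factors and genes of protein degradation). The Atf4 arm holds 14 genes (stress regulators, enzymes and transporters). RNA came from bone marrow-derived cells of C57BL/6 mice aged 5 months. The wild-type group (WT 1 to WT 3) and the Txnip -/- group (KO 1 to KO 3) held 3 libraries each. In both groups, marrow cells without mature lineage markers grew for 3 days in medium with 10% serum, 100 ng/mL stem cell factor and 20 ng/mL thrombopoietin, after which cells with CD41 on their surface were sorted. CD41, the product of Itga2b, marks megakaryocytes and their progenitors. The labels do not say whether the libraries of a genotype came from separate mice, how the Txnip allele was made, or what the replicate number stands for, so p-values measure only the spread between these samples.

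Proteins bound for the surface, for granules or for secretion fold in the endoplasmic reticulum. When unfolded proteins build up there, the membrane sensors Ern1, Atf6 and Eif2ak3 switch on genes for chaperones, for disulfide exchange and for the removal of failed proteins. Eif2ak3 also phosphorylates the translation factor eIF2, as other kinases do when amino acids run short, and this favours translation of Atf4, a transcription factor for amino acid supply, redox balance and stress-induced death. Megakaryocytes make large amounts of membrane and granule protein, and blood progenitors are known to be sensitive to this kind of stress. Activation of the sensors runs largely through protein modification, splicing and translation, and the table holds transcript levels per gene only. It does not separate spliced from unspliced Xbp1.

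Txnip was at 112, 228 and 143 FPKM (fragments scaled to transcript length and library size) across WT 1, 2 and 3, and at 0, 0.04 and 0 across KO 1, 2 and 3, so the libraries matched their genotype labels. Megakaryocyte transcripts were present in all 6, with Pf4 between 465 and 1545 FPKM. Xist lay at 48.1 and 91.6 FPKM in WT 3 and KO 3 and at 0.27 or below in the other 4 libraries. The Y-linked gene Ddx3y was listed at 0 in WT 3 and KO 3 and lay between 22.8 and 41.7 in the others, so the replicate number 3 also differs from 1 and 2 by sex. The file gives no depth. FPKM is already divided by transcript length, so levels of different genes can be set side by side.

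No member passed the test between the genotypes. On the log2(FPKM + 1) scale, 13 of 21 chaperone-arm genes had a higher mean in KO and 8 a lower one, with a median difference (KO minus WT) of 0.07. In the Atf4 arm 10 of 14 were higher and 4 lower, with a median of 0.15. Of all 11249 genes tested, 7131 were higher and 4118 lower, with a median of 0.06. By limma, 0 of the 35 members had an adjusted p under 0.05 and 0 had an unadjusted p under 0.05 (0.676% of all tested genes did). The background is low: 0.0178% of all tested genes passed. When the model also held the replicate number as a block, 0 members and 0.0267% of all genes passed, and 1 member, Trib3, had an unadjusted p under 0.05 (6.93% of all genes did). No member had its KO libraries all above or all below its WT libraries, an arrangement seen in 3.32% and 1.03% of all tested genes.

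These 6 libraries leave wide intervals. Without the block the 95% intervals of the 35 differences together reached from −1.82 to 2.62, both ends set by Trib3. With the block they reached from −0.55 (Calr) to 0.74 (Trib3), and 1 of the 35, that of Trib3, left out 0. All 35 members lay at 1 FPKM or more in all 6 libraries, so each passed the filter on low values whatever its group.

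**Figure D1:**
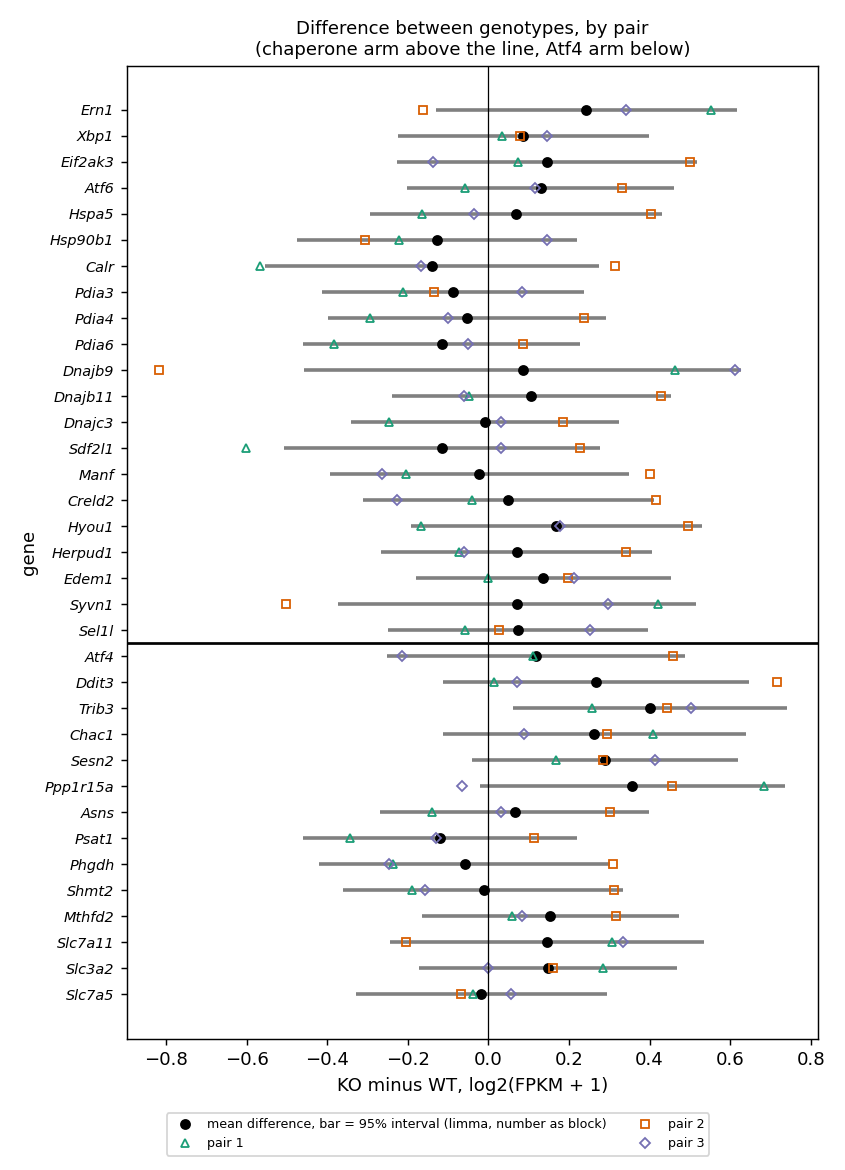
Difference between KO and WT libraries for the 35 members on the log2(FPKM + 1) scale. Black points are means over 3 pairs (KO and WT of equal number), grey bars are 95% intervals from limma with the number as a block, and open symbols are single pairs; the bar of Trib3 is the one that leaves out 0.

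Library number, in contrast, separated many members. Libraries of the same number deviated together in both genotypes, and across the members far more of the variation lay between numbers than between genotypes. The median share of a gene's sum of squares over the 6 libraries that lay between numbers was 83.6% in the chaperone arm and 90.1% in the Atf4 arm, against 73.5% over all tested genes. Between genotypes it was 2.37%, 2.79% and 5.57%. The number takes up 2 degrees of freedom and the genotype 1, so these shares are not on an equal footing. By limma's F test of the number in the model with both terms (adjusted p under 0.05), 11 of 21 chaperone-arm genes and 9 of 14 Atf4-arm genes differed between numbers, where 35.1% of all tested genes did. This test was added after the data were seen, and each number rests on 2 libraries. The chaperone-arm count was 6 without WT 1 or KO 1, 7 without WT 3 and 18 without KO 2. The Atf4-arm count stayed between 7 and 11 with any library left out. The count over all tested genes moved as well, from 698 to 5944 with libraries or pairs left out. Pairwise, numbers 2 and 1 differed most often. Number 2 was above number 1 in 2 chaperone-arm and 7 Atf4-arm genes (13.3% of all tested genes) and below it in 5 and 1 (27.7%). Number 3 was above number 1 in 2 and 4 (2.93%) and below it in 2 and 2 (8.93%). It was above number 2 in 3 and 0 (2.32%) and below it in 0 and 3 (2.22%). Beyond the tests, both number 2 libraries lay below the other 4 in 9 of 21 chaperone-arm genes (26.3% of all tested genes). That count depended on the scaling, with 5 of 21 against 19.0% of all genes under median-ratio scaling and 12 of 21 against 44.1% under a common FPKM sum. Both number 1 libraries lay above in 4 of 21 and in 1 of 14 Atf4-arm genes (32.4%), and both number 3 libraries below in 0 of 21 and in 2 of 14, Ppp1r15a and Slc3a2 (6.17%). Without both number 1 libraries, 3 genes of each arm differed by number.

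**Figure D2:**
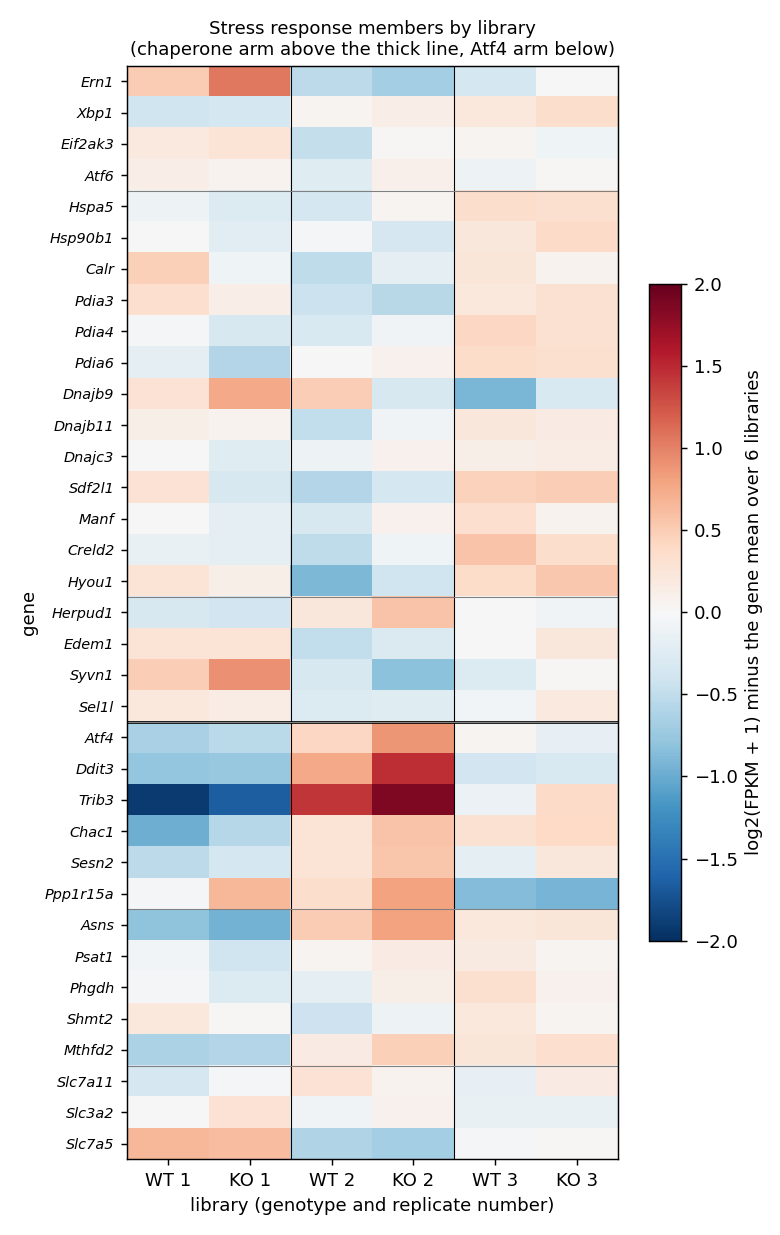
Level of each member in each library, as log2(FPKM + 1) minus the gene's mean over the 6 libraries; red is above and blue below that mean, and columns are ordered by replicate number. The Atf4-arm genes Ddit3, Trib3, Chac1, Sesn2, Asns and Atf4 are blue in both number 1 libraries and red in both number 2 libraries.

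Among the sensors, with Xbp1 grouped beside them, Ern1 and Xbp1 differed between numbers and went opposite ways. Ern1, the kinase and endoribonuclease that splices Xbp1 RNA, measured 33.7, 16.0 and 18.3 FPKM across WT 1, 2 and 3, against 49.9, 14.2 and 23.4 across KO 1, 2 and 3. Both number 1 libraries lay above the other 4, and the genotypes overlapped. The log2 difference of number 2 from number 1 was −1.38 (SE 0.21), and the F test over the 3 numbers gave an adjusted p of 0.00297 (limma). Xbp1, the transcription factor that this splicing activates, measured 59.1, 81.1 and 90.1 FPKM across WT 1, 2 and 3, against 60.6, 85.7 and 99.8 across KO 1, 2 and 3. Both number 1 libraries were the lowest, both number 3 libraries the highest, and KO lay above WT in every pair by 0.03 to 0.15 on the log2 scale. For Xbp1 the adjusted p was 0.031 for number and 1 for genotype (limma). Eif2ak3 ranged from 6.35 to 11.3 FPKM and Atf6, a membrane-bound factor released by cleavage, from 14 to 18.4, and neither passed for number (limma, adjusted p = 0.218 and 0.684).

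The 13 folding genes included the most abundant members, up to 1140 FPKM for Calr in WT 1. In 9 of the 13, both number 3 libraries lay above the other 4, an arrangement that 6.06% of all tested genes showed. These were Hspa5, Hsp90b1, Pdia4, Pdia6, Dnajb11, Dnajc3, Sdf2l1, Creld2 and Hyou1. With FPKM rescaled in each of 3 other ways the count was 9 or 10 of 13, against 6.73% to 10.6% of all genes. None of the 13 had both number 3 libraries below the others with the deposited values. The median difference of number 3 from number 1 over the folding genes was 0.29, where all tested genes had −0.11. Markers of other cells followed the same order in part. In bulk RNA, fewer cells of a type and less RNA per cell cannot be told apart. The summed FPKM of 5 granule genes of granulocyte progenitors was 4091, 4285 and 4846 over WT 1, 2 and 3, and 2758, 3483 and 5699 over KO 1, 2 and 3. That of 10 monocyte and macrophage markers was 512, 592 and 722 in WT and 653, 441 and 810 in KO. Both sums were highest in number 3 within each genotype, and their part in the folding-gene pattern was not tested. Other sums differed: that of mast cell and basophil markers was lowest in number 3 (793 in WT and 454 in KO). The megakaryocyte sum was highest in number 2 of both genotypes, and the neutrophil and erythroid sums in WT 2 and KO 3. Number 3 also differed from the other numbers by sex, so sex and number 3 cannot be told apart here.

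Hspa5, the Hsp70 chaperone BiP that also holds the sensors inactive, measured 381, 321 and 524 FPKM across WT 1, 2 and 3, against 340, 425 and 511 across KO 1, 2 and 3. The 3 number-wise pairs of KO and WT did not point the same way, and the genotype difference was 0.07 with a 95% interval of −0.295 to 0.431 (limma with the block). Its F test for number did not pass (limma, adjusted p = 0.0961). Hyou1, a nucleotide exchange factor for Hspa5, measured 81.5, 35.6 and 86.3 FPKM across WT 1, 2 and 3, against 72.4, 50.6 and 97.7 across KO 1, 2 and 3. Both number 2 libraries were the lowest and both number 3 libraries the highest. Number 3 was above number 2 by 1.096 on the log2 scale (limma, adjusted p = 0.0182). Sdf2l1, which works with the co-chaperone Dnajb11, was at 82.5, 44.8 and 93.3 FPKM in WT and at 54.0, 52.5 and 95.4 in KO, in the order 1 to 3. It was likewise higher in number 3 than in number 2, by 0.95 (limma, adjusted p = 0.0395). Creld2, a resident protein with disulfide exchange motifs, was at 29.9, 23.0 and 49.96 FPKM in WT and 29.1, 31.03 and 42.6 in KO. Hyou1, Sdf2l1 and Creld2 passed the F test for number (limma, adjusted p = 0.00592, 0.0199 and 0.0262).

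The other folding genes were less uniform. Pdia3, the disulfide isomerase that partners with calreticulin, was at 205, 121 and 189 FPKM in WT and 177, 110 and 200 in KO, low in both number 2 libraries (limma F test, adjusted p = 0.0139). Pdia6, another disulfide isomerase, was lowest in the number 1 libraries, at 174 and 133 FPKM against 198 to 258 elsewhere (adjusted p = 0.0322, limma F test). Dnajb9, a co-chaperone that returns Ern1 to its inactive state, ran against most chaperones, being lowest on average in number 3. It was at 16.8, 19.4 and 6.70 FPKM in WT and 23.5, 10.6 and 10.8 in KO, its pair differences spanned −0.82 to 0.61, and it passed for number (limma F test, adjusted p = 0.035). Hsp90b1, the Hsp90 of the endoplasmic reticulum, lay between 268 and 440 FPKM, Calr between 572 and 1140 and Pdia4 between 70.1 and 117. Dnajb11 ranged from 46.3 to 77.0 FPKM, Dnajc3, a further co-chaperone of Hspa5, from 35.4 to 46.6, and the secreted protective factor Manf from 51.6 to 81.5. None of these 6 passed for number, with limma adjusted p values between 0.0638 and 0.52.

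A set of the chaperone-arm promoters carries the endoplasmic reticulum stress element (ERSE), the site through which Atf6 is known to act. The stretches are printed because 5 of the 7 genes that hold it had both number 3 libraries on top (6.06% of all tested genes). The folding genes as a group had a similar share, 9 of 13, and a link to the element was not tested. RefSeq promoter windows (GRCm38.p6, 250 bases before to 50 after the gene start) were matched for 31 of the 35 members, 18 in the chaperone arm and 13 in the Atf4 arm. The letters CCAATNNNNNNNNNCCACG, read on both strands, were found in 7 of the 18 and in 0 of the 13, and in 0.137% of the 27025 gene symbols with a window. These genes are among those from which the element is known, so the matches are descriptive. Capitals mark the element, and where it lies on the opposite strand it reads in reverse complement.
Hspa5, chr2:34772017-34772051, + strand: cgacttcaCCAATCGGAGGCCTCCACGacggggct
Hsp90b1, distal, chr10:86705630-86705664, − strand: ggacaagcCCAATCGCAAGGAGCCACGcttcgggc
Hsp90b1, proximal, chr10:86705525-86705559, − strand: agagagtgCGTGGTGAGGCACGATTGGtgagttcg
Calr, chr8:84847067-84847101, − strand: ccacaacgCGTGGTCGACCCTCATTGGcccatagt
Pdia6, chr12:17266483-17266517, + strand: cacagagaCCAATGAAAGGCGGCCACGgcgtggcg
Dnajc3, chr14:118937819-118937853, + strand: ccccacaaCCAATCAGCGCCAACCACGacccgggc
Creld2, chr15:88819512-88819546, + strand: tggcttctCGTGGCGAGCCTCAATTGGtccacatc
Syvn1, chr19:6046524-6046558, + strand: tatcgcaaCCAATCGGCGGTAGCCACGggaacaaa
Hspa5, Hsp90b1, Pdia6, Dnajc3 and Creld2 were also highest in the number 3 libraries, while Calr and Syvn1 carry the element without that pattern. Xbp1, Pdia4, Dnajb11 and Sdf2l1 showed the pattern with no ERSE match, and Hyou1, which also showed it, had no window. The element of Hspa5 spans bases 65 to 47 before the gene start. The Xbp1-type letters TGACGTGG were found in 0 of the 31 windows and in 0.714% of all symbols.

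The 4 genes of endoplasmic reticulum-associated degradation split. Syvn1, the ubiquitin ligase Hrd1, measured 9.21, 4.85 and 5 FPKM across WT 1, 2 and 3, against 12.7, 3.13 and 6.37 across KO 1, 2 and 3. It was highest in both number 1 libraries and lowest in both number 2 libraries, with a difference of −1.26 between numbers 2 and 1 (SE 0.25; limma, adjusted p = 0.00331). Edem1, a lectin that hands misfolded glycoproteins over for degradation, followed the same order, at 55.9, 32.8 and 46.6 FPKM in WT and 55.9, 37.7 and 54.2 in KO (limma F test, adjusted p = 0.0311). Sel1l, the adaptor of Syvn1, lay between 20.45 and 28.9 FPKM and did not pass for number (limma, adjusted p = 0.149).

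Herpud1, a membrane protein of the same ligase complex, went the other way. It measured 46.6, 68.1 and 57.9 FPKM across WT 1, 2 and 3, against 44.2, 86.6 and 55.5 across KO 1, 2 and 3. Both number 1 libraries were below and both number 2 libraries above the rest, the order of Atf4 and Ddit3, and Herpud1 was the 1 chaperone-arm gene of 21 with its number 2 libraries on top (14.3% of all tested genes). The difference of number 2 from number 1 was 0.74 (limma, adjusted p = 0.0102). Its promoter window holds 2 elements, printed because it is the 1 chaperone-arm window with the Atf4-type element. These are ERSE-II (ATTGG, any base and CCACG, in 0.0444% of all symbols), which ends in CCACG as ERSE does, and the C/EBP-ATF response element bound by Atf4 (TGATGNAA, in 4.51%).
Herpud1, ERSE-II, chr8:94386369-94386395, + strand: gggcgctgATTGGGCCACGttggacac
Herpud1, C/EBP-ATF element, chr8:94386309-94386332, + strand: acggcgggTTGCATCAgcccgcac
The C/EBP-ATF letters are on the opposite strand in Herpud1. ERSE-II also matched in Dnajb11, after the gene start.

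The Atf4 arm held the widest spread between numbers. All 6 regulators differed by number (limma F test, adjusted p under 0.05), where 35.1% of all tested genes did. In 5 of them both number 1 libraries lay below the other 4, where 16.5% of all tested genes did so. In 4 both number 2 libraries lay above (14.3% of all tested genes). Over the whole arm these counts were 8 and 5 of 14. The number 1 count was 5 of 6 regulators under each of the 3 other scalings, against 6.81% to 24.9% of all genes. The number 2 count moved between 2 and 6 of 6, against 2.85% to 21.2% of all genes. The median difference of number 2 from number 1 was 1.22 over the regulators and −0.19 over all tested genes. With libraries rescaled to a common FPKM sum, these were 0.86 and −0.55.

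**Figure D3:**
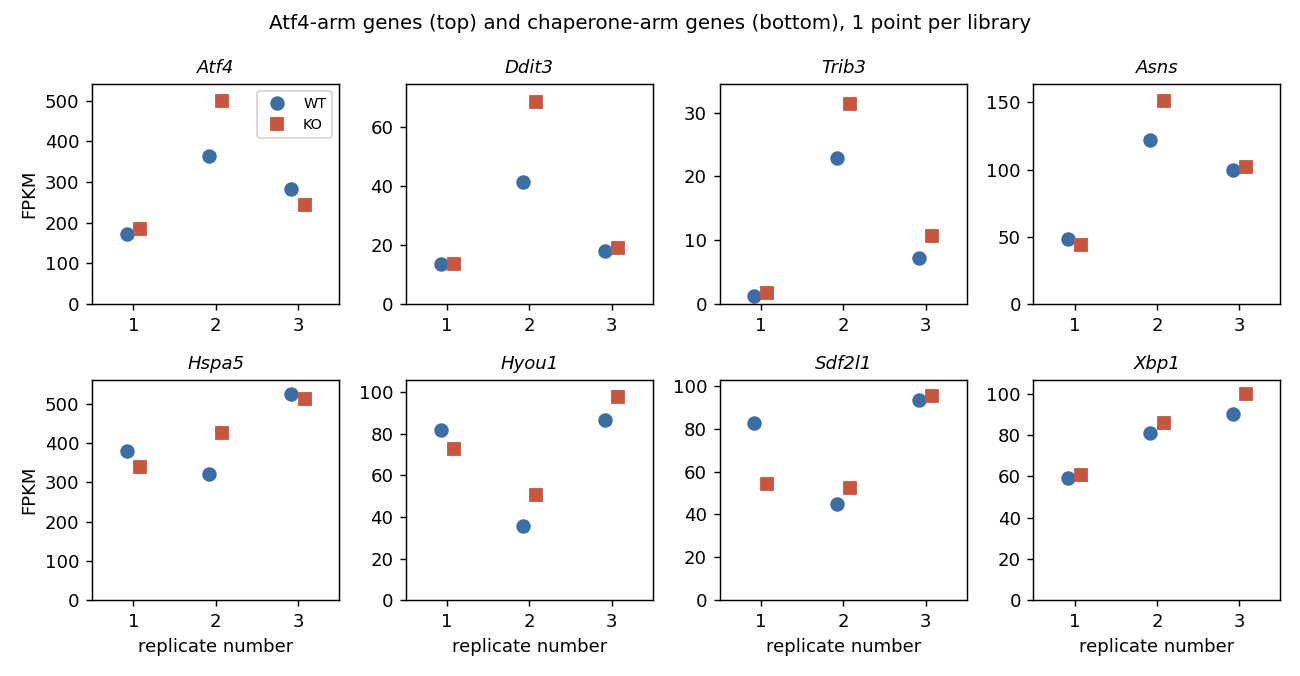
FPKM of 4 Atf4-arm genes (top) and 4 chaperone-arm genes (bottom) by replicate number, with 1 point per library, WT as blue circles and KO as red squares. Trib3 runs from 1.36 FPKM in WT 1 to 31.4 in KO 2, while Hspa5 and Hyou1 peak in the number 3 libraries of both genotypes.

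Atf4 itself measured 172, 363 and 282 FPKM across WT 1, 2 and 3, against 186, 500 and 243 across KO 1, 2 and 3. Number 2 was above number 1 by 1.25 on the log2 scale (SE 0.20; limma, adjusted p = 0.00153). Its genotype difference was 0.12 with the pairs at 0.11, 0.46 and −0.21. Ddit3, the stress factor CHOP, was at 13.54, 41.3 and 18.2 FPKM in WT and 13.7, 68.5 and 19.2 in KO. Its number 2 libraries stood apart from the other 4, by 1.89 over number 1 (SE 0.21; limma, adjusted p = 0.000466), and its number 1 and number 3 libraries lay close together.

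Trib3, a pseudokinase that feeds back on Atf4 and Ddit3, had the widest range of all members. It measured 1.36, 22.8 and 7.21 FPKM across WT 1, 2 and 3, against 1.82, 31.4 and 10.6 across KO 1, 2 and 3, a 23.1-fold span from the lowest to the highest library. In each genotype the order was number 1, then 3, then 2, and KO lay above WT in each pair, by 0.26, 0.44 and 0.50. The genotype difference of 0.40 had an unadjusted p of 0.691 without the block and 0.0251 with it, and an adjusted p of 1 and 0.683 (limma). The difference of number 2 from number 1 was 3.43 (SE 0.19; limma, adjusted p = 1.65e-05).

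Chac1, which breaks down glutathione, was at 1.91, 5.96 and 6.10 FPKM in WT and 2.86, 7.53 and 6.55 in KO, low in both number 1 libraries. Sesn2, an inhibitor of the growth kinase mTORC1 that senses leucine, was at 6.66, 12.3 and 8.73 FPKM in WT and 7.61, 15.2 and 12.0 in KO. Ppp1r15a, the phosphatase subunit GADD34 that reverses eIF2 phosphorylation, had another order, at 27.8, 36.2 and 15.0 FPKM in WT and 45.3, 50.04 and 14.3 in KO. It was low in both number 3 libraries, by 1.48 on the log2 scale against number 2 (a difference of −1.48; limma, adjusted p = 0.0111).

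Higher values in KO were the rule among the regulators without passing the test. All 6 had a higher KO mean, with a median difference of 0.28, and Ddit3, Trib3, Chac1 and Sesn2 were higher in 3 of 3 pairs. Over the Atf4 arm 6 of 14 were higher in 3 of 3 pairs (Mthfd2 and Slc3a2 besides), against 1 of 21 in the chaperone arm and 20.4% of all tested genes; 0 of 35 were lower in 3 of 3, against 8.68%. The third pair of Slc3a2 was nearly level, at 61.3 FPKM in both libraries. With median-ratio scaling, which moved the median of all genes from 0.06 to −0.02, the chaperone-arm median also turned to −0.02, the Atf4-arm median was 0.06, and 3 of the 14 were higher in 3 of 3 pairs, against 12.0% of all genes. The pairs were unequal: the Atf4-arm medians were 0.08, 0.31 and 0.04 in pairs 1, 2 and 3, and those of the chaperone arm −0.07, 0.23 and 0.03. Single libraries were left out in fits without the block, which made the numbers unequal between genotypes. Without WT 1 the Atf4-arm median turned to −0.08 and without KO 2 to −0.0068. It was 0.33 without WT 2 and 0.31 without KO 1. The chaperone-arm median was −0.09 without WT 2 and −0.06 without KO 3.

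Of the 5 amino acid enzymes, 2 differed by number, where 35.1% of all tested genes did. Asns, which makes asparagine, measured 48.7, 122 and 99.5 FPKM across WT 1, 2 and 3, against 44.1, 151 and 102 across KO 1, 2 and 3. Both number 1 libraries were lowest and both number 2 libraries highest (limma F test, adjusted p = 0.00153). Mthfd2, a mitochondrial enzyme of folate-bound one-carbon units, was at 27.8, 49.2 and 52.3 FPKM in WT and 29.0, 61.5 and 55.5 in KO, low in both number 1 libraries (limma F test, adjusted p = 0.00498). Shmt2, its neighbour in the mitochondrial one-carbon pathway, lay between 57.9 and 89.8 FPKM. The serine synthesis genes Phgdh and Psat1 ranged from 161 to 246 and from 132 to 198. These 3 did not pass for number (limma F test, adjusted p between 0.201 and 0.319). Phgdh lies on chromosome 3 with 18 tested genes between it and Txnip in RefSeq order, and its KO and WT libraries overlapped, with a difference of −0.06.

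The transporter subunits that pair with each other differed in pattern. Slc7a5, the leucine transporter subunit, measured 63.2, 25.7 and 38.7 FPKM across WT 1, 2 and 3, against 61.5, 24.5 and 40.3 across KO 1, 2 and 3. It was the 1 Atf4-arm gene with both number 1 libraries above the rest, the reverse of Atf4 and Asns. Its pairs were nearly equal, and 99.7% of its sum of squares lay between numbers (limma F test, adjusted p = 0.00228). Slc3a2, the heavy chain that carries Slc7a5 and Slc7a11 to the surface, stayed between 61.3 and 83.4 FPKM (adjusted p = 0.382, limma F test). Slc7a11, the cystine transporter, was low, between 4.42 and 7.30 FPKM (adjusted p = 0.387, limma F test).

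The C/EBP-ATF element was found in the windows of 4 of the 13 Atf4-arm genes matched and 1 of the 18 chaperone-arm genes, against 4.51% of all symbols. The Atf4-arm stretches are printed because Asns and Chac1, like Atf4, were low in both number 1 libraries. Slc7a11, with a pair of elements, did not pass for number. Both number 1 libraries lay lowest in 8 of 14 Atf4-arm genes and in 16.5% of all tested genes, and a link to the element was not tested. Atf4, Ddit3, Sesn2, Psat1 and Mthfd2 were low in both number 1 libraries too, with no such element found in their windows. Capitals mark the element.
Asns, chr6:7693217-7693240, − strand: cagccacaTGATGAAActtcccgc
Chac1, chr2:119351041-119351064, + strand: ccctgccgTTGCATCActcctgcc
Slc7a11, chr3:50443645-50443687, − strand: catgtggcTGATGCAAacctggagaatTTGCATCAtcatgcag
The match in Trib3 lies after the gene start and is not printed. Chac1 and the second copy in Slc7a11 carry the letters on the opposite strand.

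**Figure D4:**
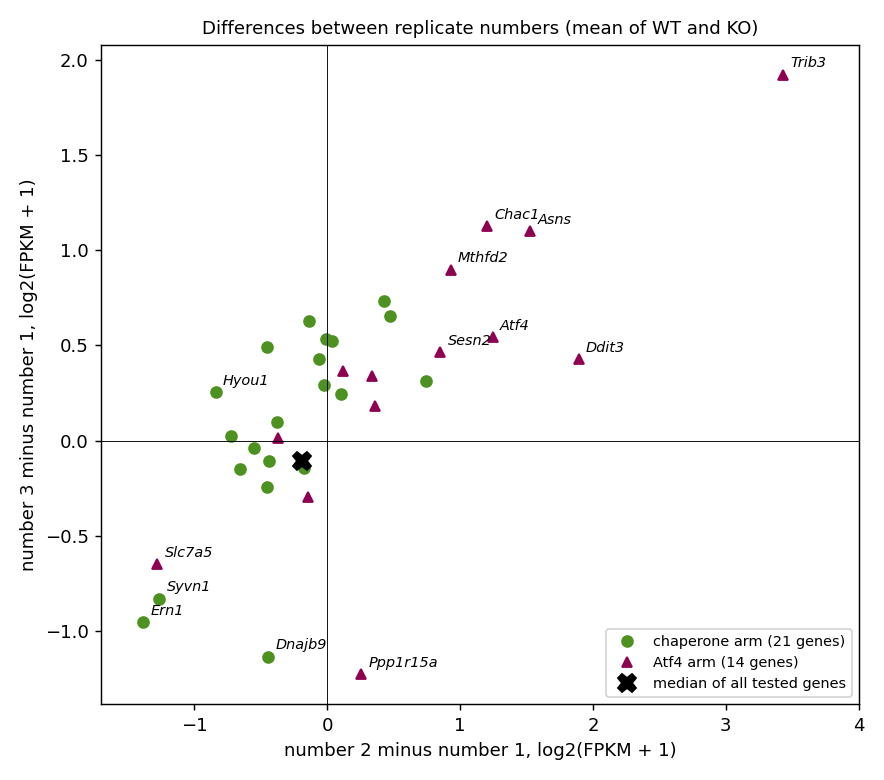
Differences between replicate numbers for each member, averaged over WT and KO, with number 2 minus number 1 on the horizontal and number 3 minus number 1 on the vertical axis, both in log2(FPKM + 1). Most Atf4-arm genes (triangles) lie at upper right, Slc7a5, Ern1 and Syvn1 lie at lower left, and the cross marks the median of all tested genes at −0.19 and −0.11.

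Further genes of the pathways, from lists outside the 35 and chosen for their roles, likewise gave no call between genotypes. Of 51 other integrated stress and amino acid genes 49 were tested, 38 with a higher and 11 with a lower mean in KO (median 0.12). By limma 0 passed, with or without the block. Unadjusted p was under 0.05 in 1 of them without the block (0.676% of all tested genes) and in 2 with it (6.93%). Their smallest p values with the block were those of Nupr1, a small stress-induced chromatin protein, Cebpb and Atf3. Nupr1 measured 3.04, 10.3 and 3.17 FPKM across WT 1, 2 and 3, against 3.68, 15.8 and 7.89 across KO 1, 2 and 3, higher in 3 of 3 pairs (limma with the block, adjusted p = 0.678). Cebpb, a partner of Atf4, was at 17.5, 15.8 and 23.7 FPKM in WT and 29.5, 46.8 and 23.0 in KO (adjusted p = 0.683, limma with the block). Atf3, an Atf4 target and stress factor, was at 13.7, 6.28 and 9.88 FPKM in WT and 26.7, 10.6 and 7.53 in KO (adjusted p = 0.777, limma with the block). By number, 18 of the 49 differed (limma F test), a share near the 35.1% of all tested genes.

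Of 44 other endoplasmic reticulum genes 42 were tested, 20 higher and 22 lower in KO (median −0.01). By limma 0 passed, with or without the block. Unadjusted p was under 0.05 in 0 of them without the block (0.676% of all tested genes) and in 5 with it (6.93%). Their smallest p values with the block belonged to Sec61g, a subunit of the protein-conducting channel, Spcs1 of the signal peptidase and Ssr4 of the channel-associated complex. Sec61g measured 145, 321 and 206 FPKM across WT 1, 2 and 3, against 100, 200 and 153 across KO 1, 2 and 3, lower in 3 of 3 pairs (difference −0.55; limma with the block, adjusted p = 0.608). Spcs1 was at 78.5, 187 and 113 in WT and 63.8, 97.8 and 84.3 in KO (adjusted p = 0.659, limma with the block). Ssr4 was at 223, 500 and 323 in WT and 152.5, 378 and 237 in KO (adjusted p = 0.683, limma with the block). Both differed the same way in each pair. By number, 11 of the 42 differed (limma F test), where 35.1% of all tested genes did.

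Sums of blood cell markers also differed between numbers. The summed FPKM of 10 megakaryocyte markers was 651 and 679 in WT 1 and KO 1 and between 1030 and 1882 in the other 4 libraries, and 6 of the 10 passed the F test for number, where 35.1% of all tested genes did. The sum of 8 mast cell and basophil markers was 1254 and 1064 in WT 1 and KO 1 and between 454 and 922 elsewhere (4 of 8 passed). Of the monocyte and macrophage markers 8 of 10 passed, and of the granule genes 4 of 5. The sum of 7 neutrophil markers was 2023, 3482 and 2680 in WT and 1265, 1304 and 3563 in KO (3 of 7 passed), and erythroid markers summed to between 88.9 and 140 (2 of 6 tested passed). Their part in the number differences of the stress genes was not tested. Among markers of B and plasma cells, which have a high secretory load, Pax5 and Tnfrsf17 were listed at 0 in all libraries, and Ms4a1, Jchain and Mzb1 stayed below 1 FPKM. Others of that list were present: Cd79b lay between 7.3 and 15.6 FPKM and Sdc1 between 1.6 and 7.54 in the 6 libraries, while Cd79a and Prdm1 reached 1.1 and 1.55. The list summed to between 12.1 and 24.3 FPKM. No marker in these lists passed between genotypes.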

How the data were processed

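Expression was measured by RNA sequencing in 6 libraries, 3 WT and 3 KO. The authors deposited FPKM values per gene symbol, with 1 column per library. The submitters' processing notes name the build mm9 and the tools RSEM 1.2.31, STAR 2.7.0a, Trimmomatic 0.39 and FastQC. The task of each tool, the annotation and the treatment of strand were not given in the sources used here. Read totals are not in the table, so depth is unknown and no interval or limit from counting was computed.

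Sample titles gave groups and numbers. Genotypes were compared with limma 3.58.1 (R 4.3.3, eBayes with trend, two-sided) on log2(FPKM + 1), a scale that understates changes of low genes. A gene was tested if 3 or more libraries reached 1 FPKM, which left 11249. Benjamini-Hochberg adjustment ran over all of them, with a threshold of 0.05. The fit was tested on simulated data. Deviations from the group means correlated between WT and KO libraries of numbers 1, 2 and 3 with r of 0.814, 0.595 and 0.381 across genes, and number 3 differed in sex in both genotypes. On that basis samples of equal number were treated as pairs, and a second model added the number as a block. In 11 of 13 members with a motif, the bases after the RefSeq start were found in a GENCODE transcript on the gene's strand. In 2, Dnajc3 and Trib3, they were found on neither strand, so the check gives no answer for the printed Dnajc3 stretch. Alternatives covered the pseudocount, the filter, 3 scalings, the trend and left-out libraries. All members were named, by role; of each further list, the 3 genes of smallest p with the block were named. Members and lists were chosen with earlier results of these data known. A marker gene is not reported here.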

Additional observations from a re-analysis of the deposited data

How the results depend on the processing

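Across 17 alternative settings, 0 of 595 combinations of member and setting passed the threshold between genotypes. Counts over all genes were 1 higher and 1 lower in KO, 2 and 1 with the replicate block (also with median-ratio scaling), and 0 higher without the filter. With libraries or pairs left out they ran from 0 to 94 higher and from 1 to 50 lower, the large counts coming from the block with 2 pairs, which leaves 1 residual degree of freedom. Under a common FPKM sum, which moved the median of all genes to 0.22, the arm medians were 0.24 (chaperone) and 0.31 (Atf4). With libraries left out they ran from −0.091 to 0.11 and from −0.075 to 0.33. The counts differing by number ran from 3 to 18 (chaperone) and from 3 to 11 (Atf4), both lowest without both number 1 libraries. Over all tested genes that count ran from 698 to 5944. Beyond what is given here, the block changed no call of a member.

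Signs of these small differences were not stable, in 30 of 35 members with libraries left out and in 18 with other settings. Genotype differences with a single library left out came from fits without the block. The replicate numbers were then unequal between the genotypes. Xbp1, Ddit3, Trib3, Chac1 and Mthfd2 were higher in KO in every pair, and their signs turned only in such fits. Under a common sum the differences turned to 0.0495 (Hsp90b1), 0.038 (Calr), 0.089 (Pdia3), 0.12 (Pdia4), 0.061 (Pdia6), 0.16 (Dnajc3), 0.059 (Sdf2l1), 0.15 (Manf), 0.057 (Psat1), 0.12 (Phgdh), 0.16 (Shmt2) and 0.15 (Slc7a5). With median-ratio scaling, with or without the replicate block, they turned to −0.019 (Hspa5), −0.035 (Creld2), −0.016 (Herpud1), −0.0061 (Syvn1), −0.00999 (Sel1l) and −0.021 (Asns). With quantile normalization they turned to 0.0029 (Hsp90b1), 0.042 (Calr), −0.0046 (Syvn1), 0.033 (Phgdh) and 0.0103 (Shmt2). With libraries or pairs left out the ranges were −0.22 to 0.65 (Ern1), −0.089 to 0.29 (Xbp1), −0.055 to 0.29 (Eif2ak3), −0.10 to 0.26 (Hspa5), −0.35 to 0.0085 (Hsp90b1), −0.43 to 0.074 (Calr), −0.32 to 0.17 (Pdia3), −0.22 to 0.14 (Pdia4), −0.31 to 0.14 (Pdia6), −0.35 to 0.54 (Dnajb9), −0.12 to 0.24 (Dnajb11), −0.11 to 0.11 (Dnajc3), −0.43 to 0.13 (Sdf2l1), −0.23 to 0.14 (Manf), −0.19 to 0.35 (Creld2), −0.24 to 0.41 (Hyou1), −0.19 to 0.28 (Herpud1), −0.072 to 0.31 (Edem1), −0.36 to 0.50 (Syvn1), −0.042 to 0.21 (Sel1l), −0.29 to 0.42 (Atf4), −0.40 to 0.72 (Ddit3), −0.46 to 1.33 (Trib3), −0.16 to 0.62 (Chac1), −0.32 to 0.55 (Asns), −0.24 to 0.049 (Psat1), −0.24 to 0.091 (Phgdh), −0.22 to 0.092 (Shmt2), −0.13 to 0.48 (Mthfd2) and −0.33 to 0.31 (Slc7a5). The cause was not tested.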
